A study of Mus musculus with 20 samples.

Results

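Acta1, Ckm, Mylpf, Des, Myh4, Tnnt3, Tnni2, Actn3, Mb and Atp2a1 are 10 genes of the contractile, calcium-handling and energy machinery of skeletal muscle. They were taken by gene symbol with every probe set that carries one of these symbols, which gave 16 probe sets of the 45141 on the array and 10 of 17097 genes with a symbol. Of the 16 probe sets, 13 passed a filter on dim signals, and all 10 genes entered the tests, each with its brightest probe set. The values came from 20 mouse arrays, each hybridised with total RNA of 1 sample, in 4 groups. CDS (6 arrays) are individual CIC-DUX4 sarcomas, which grew as masses under the skin of Balb/c nude mice from embryonic mesenchymal cells given CIC-DUX4, the fusion of DUX4, an activator, to CIC, a repressor. ES (6 arrays) are mouse Ewing sarcomas from subcutaneous growth in the same host strain, and the sources used here do not name the cells they grew from. The eMC CIC-DUX4 group (4 arrays) holds primary embryonic mesenchymal cells 48 h after transduction with the retrovirus pMYs-CIC-DUX4-IRES-GFP, and the eMC empty group (4 arrays) the same kind of cells 48 h after pMYs-IRES-GFP. The tumors had received no treatment. The labels do not say whether the arrays of cultured cells came from separate cultures, so p-values for them measure only the spread between these samples. Nude mice lack T cells but keep their own muscle, vessels and skin, and a subcutaneous mass lies next to all of them.

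Skeletal muscle contracts when calcium released inside the fibre binds the troponin complex on the actin filaments and lets myosin pull on them, and pumping calcium back ends the contraction. Most of the genes here belong to fast fibres, which shorten quickly and draw on phosphocreatine and glycolysis, while slow fibres carry other myosin and troponin isoforms. Many of these genes are bound near their starts by the myogenic factors of the MyoD family, which recognise the E-box, and some by SRF, which recognises the CArG box.

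Sequences upstream of the start are shown for Acta1 and Mylpf, which were bright in the cultured cells, and for Ckm and Myh4. The latter were dim in all eMC empty samples and bright in several tumors, and Ckm was above the dip in eMC CIC-DUX4 5 and 7. Each is the run of 250 bases before the RefSeq start on GRCm38.p6, read 5′ to 3′ on the gene's own strand, with CAGCTG in capitals. CAGCTG is one spelling of the E-box CANNTG, and both motifs read the same on the other strand. The coordinates are chr8:123894776-123895025 on the minus strand for Acta1, chr7:127211358-127211607 on the plus strand for Mylpf, chr7:19410844-19411093 on the plus strand for Ckm and chr11:67237562-67237811 on the plus strand for Myh4.
Acta1: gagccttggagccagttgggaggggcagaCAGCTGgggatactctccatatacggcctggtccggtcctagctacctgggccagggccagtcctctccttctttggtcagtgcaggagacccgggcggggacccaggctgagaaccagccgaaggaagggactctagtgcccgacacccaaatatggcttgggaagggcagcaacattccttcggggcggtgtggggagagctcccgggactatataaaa
Mylpf: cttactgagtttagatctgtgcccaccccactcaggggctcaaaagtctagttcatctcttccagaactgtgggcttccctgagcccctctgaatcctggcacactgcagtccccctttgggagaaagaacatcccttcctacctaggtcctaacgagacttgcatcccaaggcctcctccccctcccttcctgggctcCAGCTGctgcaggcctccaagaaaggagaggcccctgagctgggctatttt
Ckm: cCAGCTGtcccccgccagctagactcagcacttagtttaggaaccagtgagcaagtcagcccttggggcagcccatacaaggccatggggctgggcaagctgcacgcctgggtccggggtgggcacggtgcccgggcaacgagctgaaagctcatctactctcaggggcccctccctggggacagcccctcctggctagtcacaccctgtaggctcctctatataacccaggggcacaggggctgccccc
Myh4: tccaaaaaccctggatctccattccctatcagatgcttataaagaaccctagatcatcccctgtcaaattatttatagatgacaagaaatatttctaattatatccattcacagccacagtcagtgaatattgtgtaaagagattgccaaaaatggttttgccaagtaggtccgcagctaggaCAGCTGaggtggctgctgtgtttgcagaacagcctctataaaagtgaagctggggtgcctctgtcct
RefSeq starts were matched for 7 of the 10 genes, with 9 windows in all because Mb had several starts; Tnnt3, Tnni2 and Actn3 were not matched. CAGCTG was found in 8 of the 9 windows and in at least 1 window of each of the 7 genes, against 13% of the 32851 windows of all genes. The Mb windows that hold it overlap and share the same site, which is thus counted in each. Any CANNTG, a motif that includes every CAGCTG, was found in each of the 9 windows of the 7 genes and in 66.2% of all windows. The CArG box was found in 2 of the 9 windows, those of Acta1 and Myh4, and in 1.47% of all windows. The motif was thus present both before genes that were bright in the cultured cells and before genes that were dim in the eMC empty samples.

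The deposited values were log2 signals. They were returned to the linear scale, and every level of a gene or probe set below is log2(signal + 1.42), called the log2 signal. A difference of 1 is a 2-fold difference at bright levels, and differences of dim probes are understated. Dips and array medians are on the deposited log2 scale, without the added 1.42, and whether a probe set was above its dip was judged on that scale. Levels of different probe sets are not set against each other. An array's signals form a dim and a bright part with a dip in their density between them, and a probe set under the dip of its array is called dim. The dip lay between 2.97 and 8.18 in the 19 arrays that had one, and eMC CIC-DUX4 6 had none. The trimmed means of the linear signals were nearly equal, 500.1 to 500.3, but the distributions were not. The median of the deposited log2 values was 5.63 in CDS 2, 6.10 in eMC CIC-DUX4 5 and 7.03 in eMC CIC-DUX4 6, and 1.85 to 3.88 in the other arrays. Differences are therefore given as deposited and after quantile normalization. As a measure of RNA quality, the Actb signal at the 3′ end exceeded that at the 5′ end, more so in degraded RNA, by 0.31 to 1.28 in CDS, 0.17 to 0.31 in ES and 0.13 to 0.23 in the cultured cells.

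In both tumor types the muscle genes differed widely between tumors, and they did so together: all 10 ran from dim to bright in ES, and all but Acta1, which was above the dip throughout, in CDS. CDS 3, CDS 4 and CDS 5 were the top 3 CDS tumors for all 10 genes, and ES 46, ES 48 and ES 49 the top 3 ES tumors for all 10. For Atp2a1 the margin was small: CDS 5 was dim at 6.14, and CDS 2 was above its own dip at 6.11. ES 51 was the lowest ES tumor for all 10 genes and had none of them above its dip. CDS 1, CDS 2 and CDS 6 were low for all 10, with 2, 7 and 1 of them above the dip. Of all probe sets, 24.5%, 57.6% and 20.1% were above the dip in these arrays. These are bulk signals of whole tumor pieces, so more or fewer muscle fibres in a piece, more or less RNA per fibre and expression by the tumor cells themselves cannot be told apart, and the share of host muscle in the pieces was not tested.

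**Figure D1:**
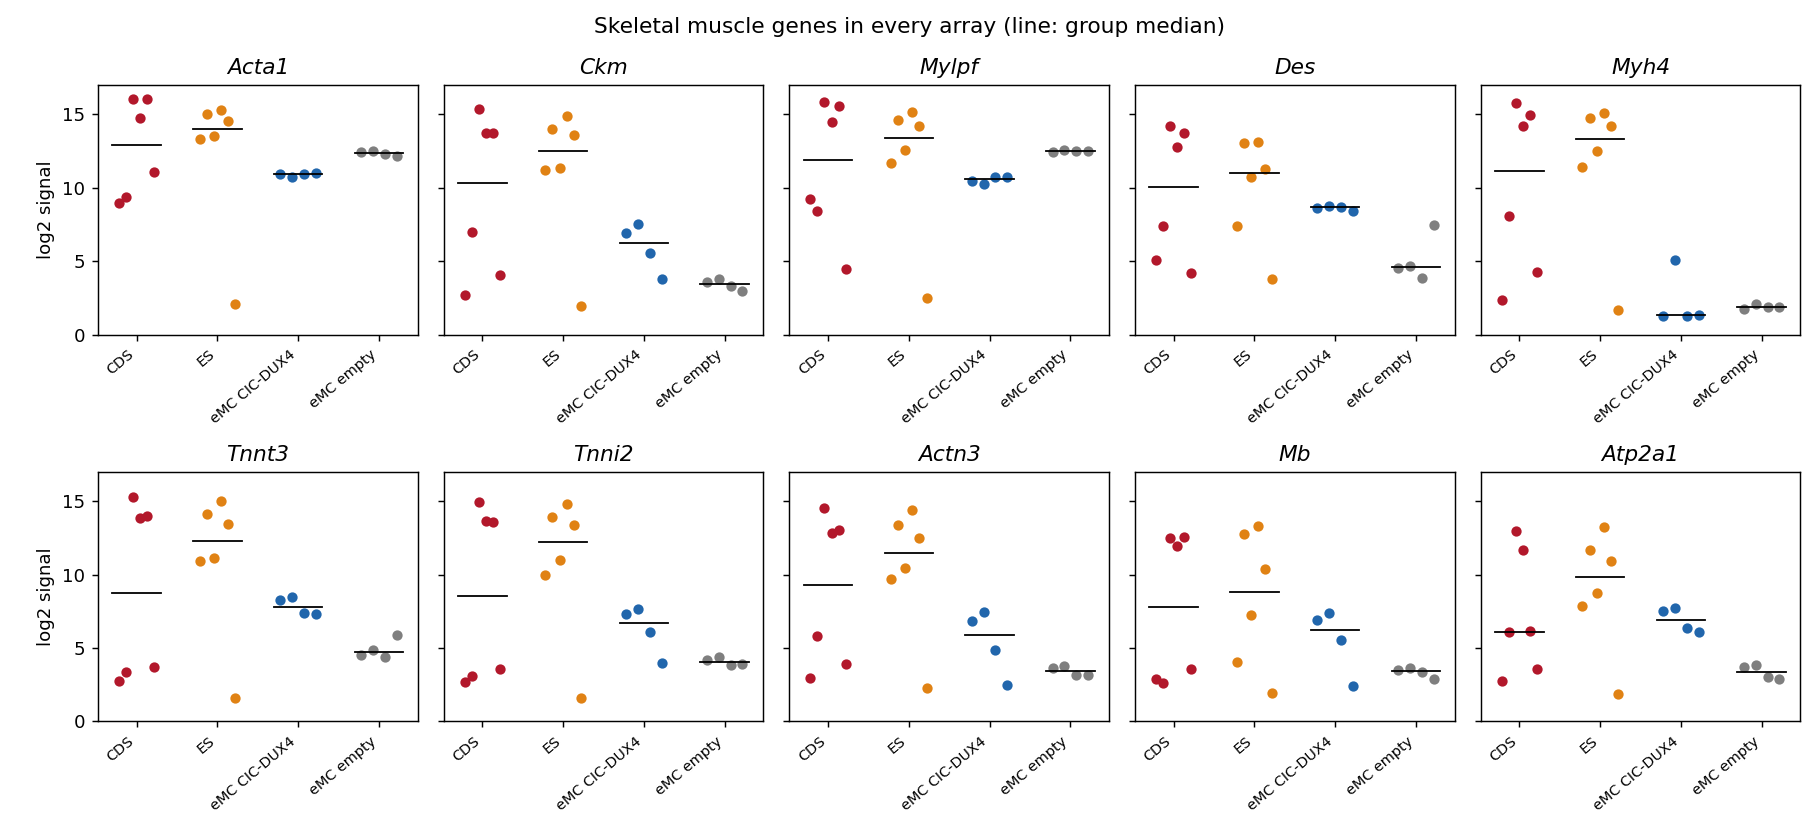
Log2 signal of each of the 10 skeletal muscle genes (1 panel each, brightest probe set) in every array, by group; points are arrays and the line is the group's median. Tumor arrays of each type are spread over up to 13.45 log2 units, while for Acta1 and Mylpf the 4 arrays of each cell group lie close together.

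Acta1 (probe set 1427735_PM_a_at) encodes skeletal alpha-actin, the protein of the thin filament. Its log2 signal in CDS had a lowest value of 8.93, a median of 12.92 and a highest value of 16.04, and in ES 2.08, 14.02 and 15.31. It was 10.93, 10.72, 10.97 and 11.01 in eMC CIC-DUX4 5 to 8, and 12.47, 12.49, 12.28 and 12.16 in eMC empty 4 to 7. Acta1 was above the dip in every CDS tumor, in 5 of 6 ES tumors and in every cultured sample with a dip. CDS 1 and CDS 2, at 8.93 and 9.38, lay below all 8 samples of cultured cells, and CDS 3 and CDS 5, at 16.04 and 16.03, far above them.

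Myh4 (1427026_PM_at) encodes the myosin heavy chain of the fastest mouse fibres, type IIB. Its log2 signal ran from 2.39 over a median of 11.16 to 15.77 in CDS and from 1.66 over 13.34 to 15.11 in ES. It was 1.28, 5.12, 1.28 and 1.35 in the eMC CIC-DUX4 samples and 1.74, 2.12, 1.91 and 1.87 in the eMC empty samples. Myh4 was thus dim in all cultured samples with a dip, and the 5.12 of eMC CIC-DUX4 6 lay below that array's own median of 7.03. CDS 1 and CDS 6 were also dim, at 2.39 and 4.24, as was ES 51, and CDS 2 was above its dip at 8.09.

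Mylpf (1448371_PM_at), the regulatory light chain of fast myosin, ran from 4.50 over 11.87 to 15.86 in CDS and from 2.47 over 13.39 to 15.16 in ES. It was 10.43, 10.25, 10.75 and 10.74 in the eMC CIC-DUX4 samples and 12.42, 12.58, 12.53 and 12.50 in the eMC empty samples. Like Acta1 it was bright in the cultured cells. CDS 6 at 4.50 was dim and CDS 1 at 9.24 was not, although both are tumors in which Myh4 was dim.

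Tnnt3 (1450118_PM_a_at) and Tnni2 (1416889_PM_at) are the tropomyosin-binding and inhibitory subunits of fast troponin. Tnnt3 ran from 2.74 over 8.77 to 15.28 in CDS and from 1.57 over 12.28 to 14.98 in ES. It was 8.27, 8.46, 7.38 and 7.32 in the eMC CIC-DUX4 samples and 4.54, 4.85, 4.42 and 5.86 in the eMC empty samples. For both genes CDS 1, CDS 2 and CDS 6 were dim, and CDS 3, CDS 4 and CDS 5 lay at 13.58 or higher, with no tumor between. Tnni2 ran from 2.69 over 8.57 to 14.94 in CDS and from 1.62 over 12.18 to 14.78 in ES, and was 7.34, 7.68, 6.10 and 4.01 in the eMC CIC-DUX4 samples and 4.20, 4.36, 3.85 and 3.92 in the eMC empty samples. The medians of the CDS tumors therefore fall in a gap where no CDS tumor lay.

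Actn3 (1418677_PM_at) is the alpha-actinin of fast-fibre Z-discs, where thin filaments are anchored. It ran from 2.96 over 9.32 to 14.55 in CDS and from 2.27 over 11.47 to 14.42 in ES. It was 6.83, 7.43, 4.88 and 2.45 in the eMC CIC-DUX4 samples and 3.65, 3.79, 3.19 and 3.13 in the eMC empty samples, which were all dim. Des (1426731_PM_at) encodes desmin, the intermediate filament that links Z-discs and is also made by smooth muscle. It ran from 4.21 over 10.07 to 14.20 in CDS and from 3.77 over 10.99 to 13.15 in ES. Des was 8.64, 8.79, 8.70 and 8.45 in the eMC CIC-DUX4 samples and 4.55, 4.71, 3.89 and 7.47 in the eMC empty samples, of which only replicate 7 was above its dip.

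Atp2a1 (1419312_PM_at), the calcium pump of fast fibres, ran from 2.77 over 6.12 to 12.98 in CDS and from 1.89 over 9.84 to 13.20 in ES. It was 7.49, 7.74, 6.35 and 6.06 in the eMC CIC-DUX4 samples and 3.71, 3.84, 3.06 and 2.92 in the eMC empty samples. CDS 5 was at 6.14, below its dip of 8.09, which made Atp2a1 the only one of the 10 genes to be dim in CDS 5. In that array 11.7% of all probe sets were above the dip, the lowest share among the tumors, and the part of this in the dim value was not tested.

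Ckm (1417614_PM_at) encodes muscle creatine kinase, which regenerates ATP from phosphocreatine. It ran from 2.67 over 10.35 to 15.34 in CDS and from 1.98 over 12.49 to 14.87 in ES, and was 6.90, 7.55, 5.59 and 3.82 in the eMC CIC-DUX4 samples and 3.62, 3.78, 3.30 and 2.95 in the eMC empty samples. Mb (1451203_PM_at) encodes myoglobin, the oxygen store of oxidative fibres. It ran from 2.62 over 7.77 to 12.56 in CDS and from 1.95 over 8.81 to 13.29 in ES, and was 6.89, 7.40, 5.56 and 2.44 in the eMC CIC-DUX4 samples and 3.49, 3.63, 3.36 and 2.90 in the eMC empty samples. Mb was the only gene of the 10 that was dim in ES 41, at 4.02, and the only one for which CDS 5 was higher than CDS 3. It was dim in CDS 2, where Ckm was above the dip at 6.99.

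The other probe sets of 5 of the genes did not all follow. For Tnni2, 1438609_PM_x_at ran from 2.75 to 15.01 in CDS and from 2.16 to 14.64 in ES, much like the probe set used. For Ckm, 1444643_PM_at reached 9.09 in CDS 3 and 10.12 in ES 48 and was dim in CDS 5 and in 4 ES tumors. For Myh4, 1458368_PM_at was above the dip in CDS 3, CDS 4, ES 46 and ES 48. The remaining probe sets of Des (1426732_PM_at), Tnni2 (1438608_PM_at) and Mb (1422420_PM_at) were dim in all 12 tumors and did not pass the filter.

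The spread between tumors was far above that of the other genes. The SD of the log2 signal between the 6 CDS arrays was 3.29 (Acta1) to 6.12 (Tnnt3) for the 10 genes, with a median of 5.14, against a median of 1.504 over the 12343 genes tested. Between the 6 ES arrays it was 3.65 (Des) to 5.07 (Acta1), with a median of 4.75, against 0.54. The SD of each of the 10 genes was above that of at least 99.1% of genes in CDS and at least 98.7% in ES. In eMC empty the spread was near that of other genes, with a median SD of 0.32 against 0.39. In eMC CIC-DUX4 it was 1.24 against 0.21, and after quantile normalization, which brings arrays 5 and 6 to the others, the SD of each of the 10 genes was 0.34 or less there. On that scale these SDs were above those of 19.6% (Acta1) to 92.8% (Mylpf) of genes.

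**Figure D2:**
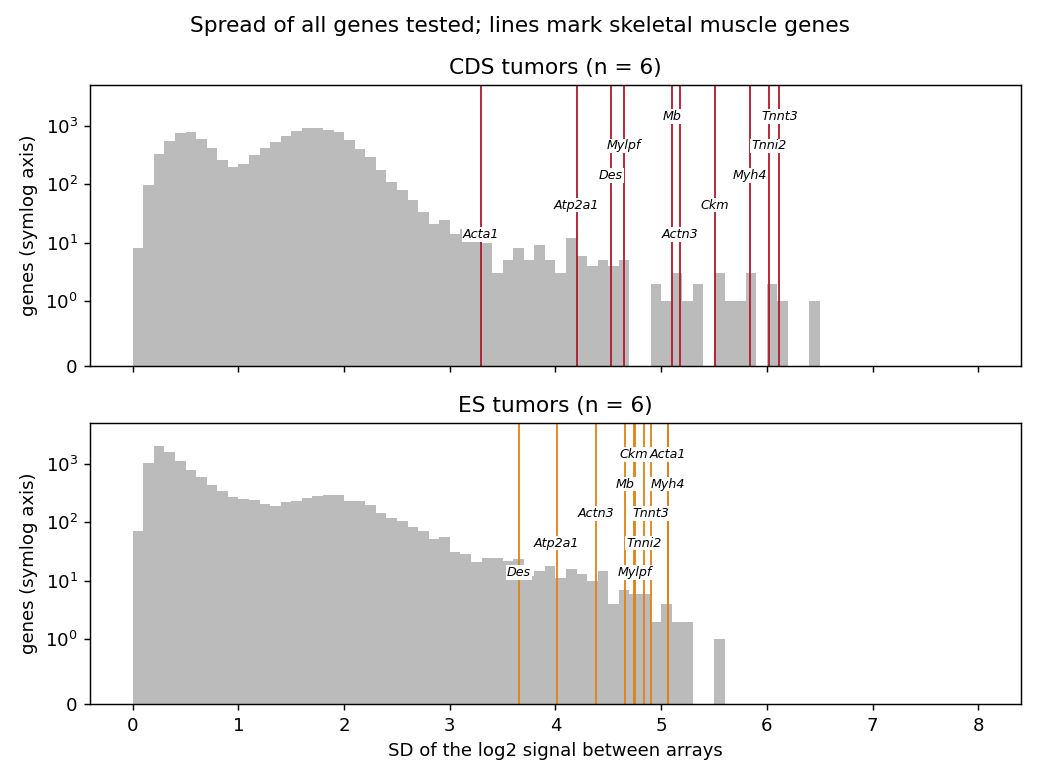
Histogram of the SD of the log2 signal between arrays (horizontal axis, log2 units) over all genes tested, with the number of genes on a symmetric log axis, for the 6 CDS and the 6 ES tumors. Coloured lines mark the 10 skeletal muscle genes, which lie at 3.29 to 6.12 in CDS and 3.65 to 5.07 in ES, in the right tail of both histograms.

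The mean log2 signal over the 10 genes puts the tumors in an order. Among CDS it was 4.24 in CDS 1, 4.65 in CDS 6, 6.12 in CDS 2, 13.32 in CDS 5, 13.38 in CDS 4 and 14.75 in CDS 3. Among ES it was 2.13 in ES 51, 9.75 in ES 41, 10.92 in ES 47, 12.84 in ES 49, 13.72 in ES 46 and 14.43 in ES 48. The CDS tumors thus fell into a lower 3 and an upper 3 with a wide gap, while the ES tumors formed a graded series above ES 51. The Actb excess was 0.76, 0.70 and 1.28 in CDS 1, CDS 2 and CDS 6 and 0.58, 0.31 and 1.16 in CDS 3, CDS 4 and CDS 5, so both sets held tumors of high excess. In ES 51 it was 0.29, within the range of the other ES tumors, and 38.9% of its probe sets were above the dip, more than in 4 of the other 5. The part of RNA quality in the order was not tested.

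CDS against ES tumors asked whether the muscle genes differed between the tumor types. They did not pass the test: 0 of the 10 were called higher and 0 lower, where 20.8% of all genes were called (higher 11.2%, lower 9.58%) at a limma adjusted p under 0.05 with a change of 1 or more on the log2 scale. The groups overlapped for all 10 genes, while for 16.5% of all genes they did not. The log2 fold changes ran from 0.41 ± 1.88 (SE, n = 6 and 6; Acta1) to -2.20 ± 2.45 (Tnnt3), with a median of -1.63 against 0.02 for all genes, and the adjusted p-values from limma were 0.485 to 0.909 (0 genes at an unadjusted p under 0.05, the lowest being 0.338). After quantile normalization the median was -1.70 and 0 genes were called, against 33.1% of all genes (higher 16.9%, lower 16.2%). With standard errors of 1.83 to 2.45, a difference of several-fold between the tumor types was not detectable for these genes.

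The CDS and ES tumors were each set against the cultured cells with the empty vector, and both comparisons use the same 4 control arrays. In CDS, Myh4 rose: the log2 fold change was 8.03 ± 2.22 (SE, n = 6 and 4; limma adjusted p = 0.0165), and 7.64 after quantile normalization (adjusted p = 0.0188). Because Myh4 was dim in all 4 control arrays, this is at least 8.66-fold, the mean of the CDS tumors against the mean of the control arrays' dips. Every CDS tumor was above every control array, but the lowest, CDS 1 at 2.39, was dim like the highest control at 2.12. This was 1 of 10 muscle genes called higher, against 14.6% of all genes (17.6% after quantile normalization), and 0 were called lower, against 5.81% (19.2%). In both directions together 20.4% of all genes were called, and 36.8% after quantile normalization. It was also the only 1 of the 10 whose groups did not overlap, as 23.1% of all genes did not.

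For the other 9 genes the CDS tumors overlapped the controls. Ckm had a log2 fold change of 6.01 ± 2.10 and a limma adjusted p of 0.0502, and Actn3 5.40 ± 2.01 with an adjusted p of 0.0639. The median over the 10 genes was 4.37 against 0.89 for all genes, and 2.66 against -0.10 after quantile normalization. Acta1 (0.35 ± 1.18) and Mylpf (-1.16 ± 1.66), bright in the controls, were closest to no difference. Leaving out CDS 1 or CDS 6, either of which has low muscle signals, gave 4 called genes in place of 1. Over all 12343 genes, 1490 to 3327 were called in either direction with single arrays left out, against 2518 with all arrays. With all arrays shifted to the same median the call of Myh4 was lost (limma adjusted p = 0.0888).

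In ES against eMC empty, 7 of the 10 genes rose, where 30.1% of all genes were called higher, and 0 fell, where 10.9% did. For Myh4 the log2 fold change was 9.68 ± 2.16 (SE, n = 6 and 4; limma adjusted p = 0.00311), at least 27.2-fold. For Ckm it was 7.77 ± 2.02 (adjusted p from limma 0.00745), at least 20.4-fold, for Actn3 7.00 ± 1.89 (0.00899), at least 12.3-fold, and for Tnni2 6.69 ± 2.06 (0.0176), at least 15.4-fold. Atp2a1 (5.67 ± 1.77), Tnnt3 (6.10 ± 2.09) and Des (4.74 ± 1.66) also rose, with limma adjusted p-values of 0.019, 0.0285 and 0.0315. Mb at 4.92 ± 2.04 missed the threshold (adjusted p = 0.0602). Acta1 and Mylpf had log2 fold changes of -0.06 ± 2.12 and -0.72 ± 1.99.

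After quantile normalization 3 of these 7 genes were called in ES, Myh4, Ckm and Actn3, against 17.3% of all genes called higher (36.2% in either direction), and the call of the other 4 was lost. The groups overlapped for all 10 genes as deposited, with ES 51 below all 4 controls for each of them, while for 35.9% of all genes they did not overlap. Without ES 51, 9 of the 10 genes were called higher, and Acta1 was one of them, with a log2 fold change of 1.99 and a limma adjusted p of 0.00195. Over all 12343 genes, 4111 to 5440 were called in either direction with single arrays left out, against 5057 with all arrays. The call of Des or Tnnt3 was lost when any of several single arrays, tumors or controls, was left out.

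**Figure D3:**
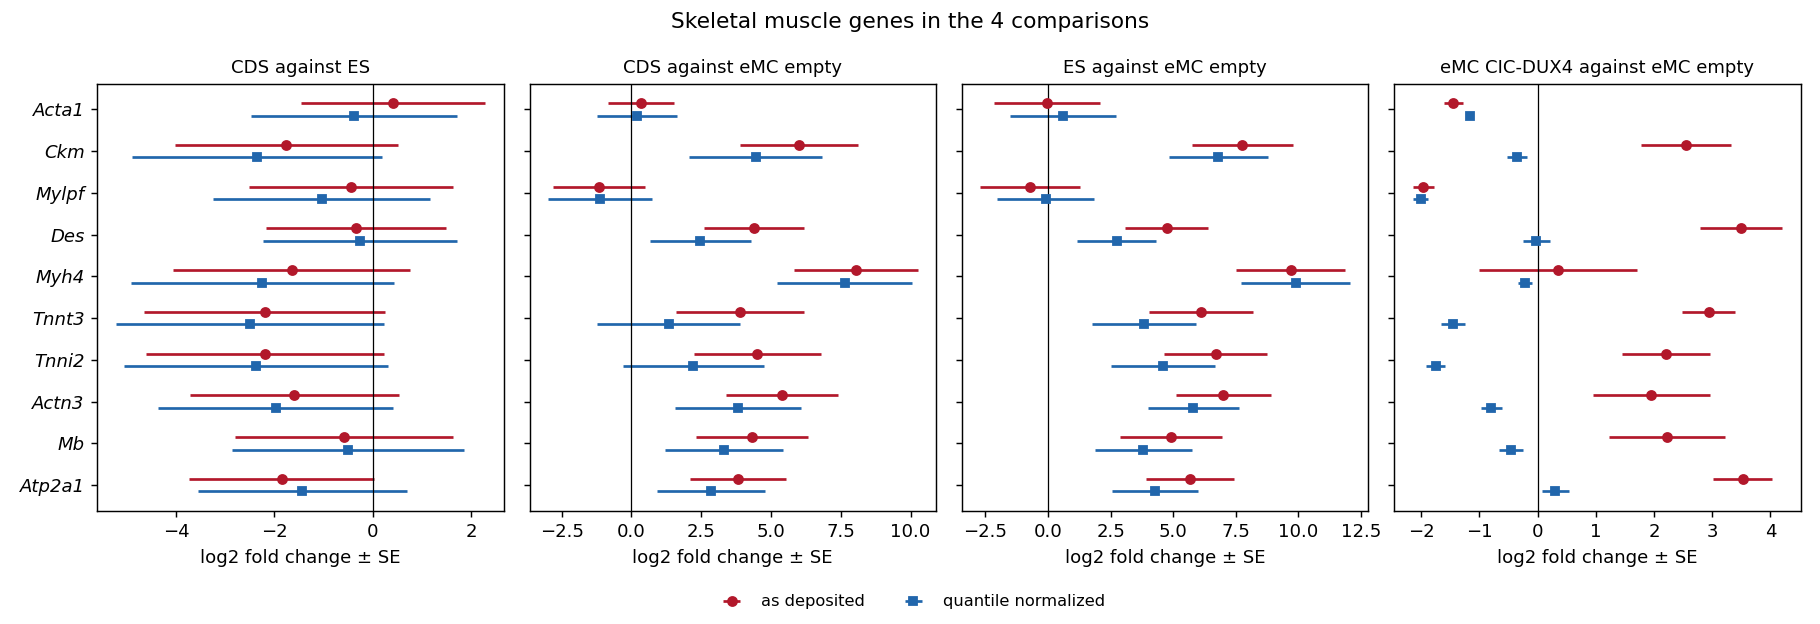
Log2 fold change ± SE of each of the 10 skeletal muscle genes in the 4 comparisons, as deposited (circles) and after quantile normalization (squares); the vertical line marks no difference. Standard errors are wide in the 3 comparisons with tumors, and in the comparison of the cultured cells 7 genes lie on opposite sides of 0 in the 2 scalings.

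In the cultured cells, Acta1 and Mylpf alone of the 10 genes were above the dip in every array with a dip, in both groups. Both were lower with CIC-DUX4 than with the empty vector. Acta1 fell by 1.45 on the log2 scale (SE 0.17, n = 4 and 4; limma adjusted p = 7.93e-05), and Mylpf fell by 1.96 (SE 0.18; adjusted p = 2.18e-05). After quantile normalization the changes were -1.17 and -2.01. All 4 CIC-DUX4 arrays were below all 4 control arrays for both genes. These were 2 of 10 genes called lower, against 4.62% of all genes. With all arrays shifted to the same median the values were -3.003 and -3.523 and the calls were lost (adjusted p = 0.212 and 0.174), as they were in a fit of all 4 groups together (adjusted p = 0.528 and 0.433). For Acta2 the mean log2 signal was 15.43 with the empty vector and 13.58 with CIC-DUX4. It was 15.49 and 14.22 for Fabp4 and 14.14 and 13.1 for Adipoq, but 10.99 and 11.47 for Pparg. Of 4 fat cell genes 2 were called lower and 0 higher, and of 5 smooth muscle genes 1 and 1. After quantile normalization 1 gene of each list was called lower and 0 higher. Whether bright genes fell as a class was not tested.

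As deposited, 5 of the 10 genes were called higher in eMC CIC-DUX4, Ckm, Des, Tnnt3, Tnni2 and Atp2a1, with log2 fold changes of 2.20 to 3.53, where 46.4% of all genes were called higher. The median of all genes was 2.07 in this comparison, so these values are near the shift of the whole array. After quantile normalization 0 were called higher, against 8.13% of all genes. Ckm (-0.35), Des (-0.02), Tnnt3 (-1.45) and Tnni2 (-1.75) then had the opposite sign, and Tnnt3 and Tnni2 were called lower together with Acta1 and Mylpf, 4 of 10 against 4.81%. For Atp2a1 the lower bound as deposited was 1.06-fold and the quantile value 0.31. The groups did not overlap for 6 of the 10 genes, and for 60.4% of all genes. A direction for Ckm, Des, Tnnt3 and Tnni2 was thus not settled, whereas Acta1 and Mylpf had the same direction under every scaling tried.

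Other genes of the muscle programme, in lists chosen with earlier results known, were read beside the 10. Of 21 other fast-fibre and sarcomere genes tested, 10 rose and 0 fell in ES against eMC empty, with a median log2 fold change of 4.89. Of all genes, 30.1% rose and 10.9% fell there. After quantile normalization 10 of the 21 rose too, against 17.3% of all genes. In CDS against eMC empty 2 rose and 0 fell, against 14.6% and 5.81% of all genes, with a median of 4.09. In CDS against ES 0 were called, against 20.8% of all genes. Myh1, the type IIX myosin, had a log2 fold change of 8.02 ± 2.17 in ES against eMC empty (limma adjusted p = 0.00913), at least 13.1-fold. Myot, a Z-disc protein, had 7.28 ± 2.10 (adjusted p from limma 0.0127), at least 7.13-fold. In CDS the 2 genes had values of 6.36 and 5.19 that missed the threshold, and CDS 1, CDS 2 and CDS 6 were at 4.28 or lower for both. The 2 called in CDS were Ryr1 and Casq1, the calcium buffer calsequestrin, and the call of Casq1 was lost after quantile normalization (limma adjusted p = 0.0655). After quantile normalization 1 of the 21 rose and 3 fell in eMC CIC-DUX4 against eMC empty, where 8.13% and 4.81% of all genes did. As deposited 4 of the 21 rose and 2 fell, against 46.4% and 4.62% of all genes. The 2 that fell were, like Acta1 and Mylpf, genes bright in the cultured cells: Tnnc2 by 1.51 (SE 0.22; limma adjusted p = 0.000317) and Myl1, the alkali light chain of fast myosin, by 1.11 (SE 0.16; adjusted p = 0.000288). Casq1 and Myl1, and below Pfkm, Cox8b, Eno3, Myl4, Myod1 and Mymk, were named after their values were seen.

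**Figure D4:**
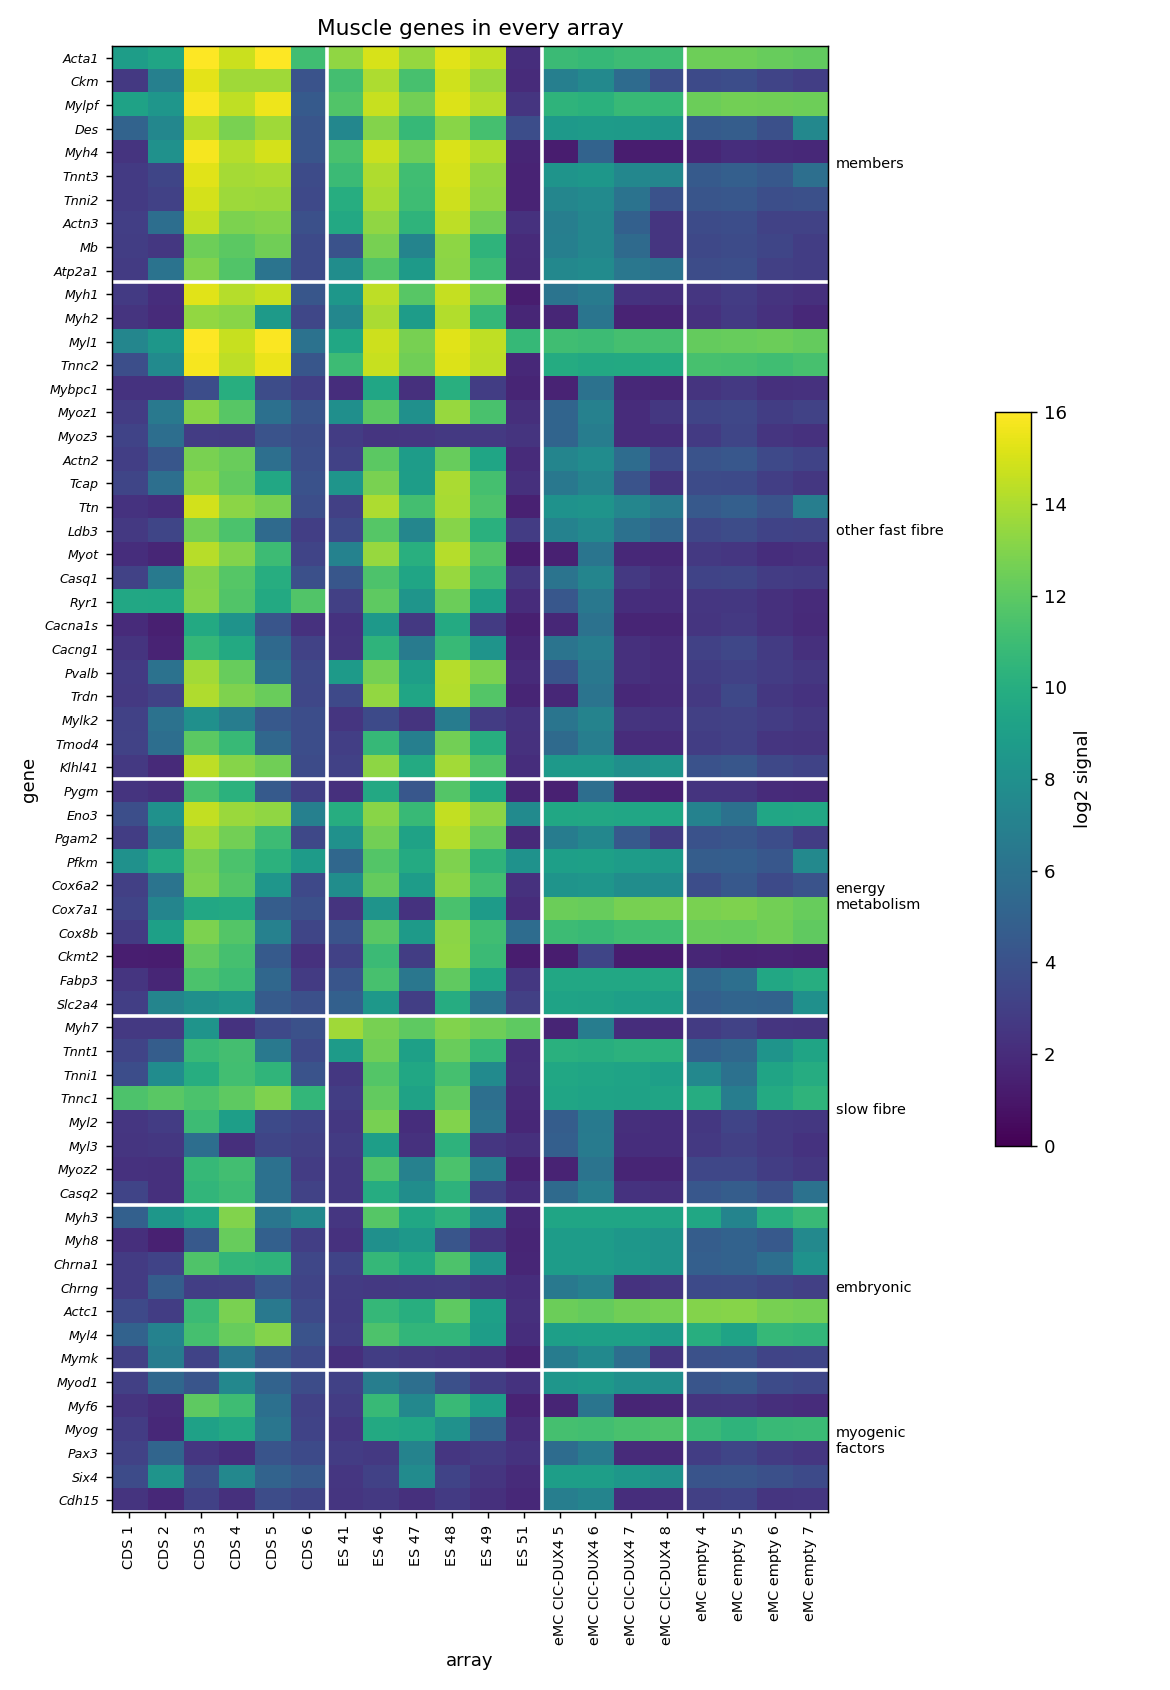
Log2 signal (colour scale) of the 10 skeletal muscle genes and of the tested genes of 5 other muscle lists (rows) in all 20 arrays (columns), with white lines between lists and groups. CDS 3, CDS 4, ES 46, ES 47, ES 48 and ES 49 are bright over most rows, while Ryr1 and Tnnc1 are bright in every CDS tumor and Myh7 in every ES tumor.

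Some of these genes did not follow the order of the 10. Ryr1, the calcium release channel of skeletal muscle, was at 9.58, 9.51, 13.08, 11.63, 9.73 and 11.63 in CDS 1 to 6, so it was above the dip also in CDS 1, CDS 2 and CDS 6, the 3 CDS tumors of low muscle signal. Against eMC empty its log2 fold change was 8.52 ± 0.93 in CDS (limma adjusted p = 5.95e-06), at least 16.4-fold, and 5.48 ± 1.93 in ES (adjusted p = 0.0326). In ES it ran with the others, from 2.02 in ES 51 to 12.41 in ES 48. The difference between CDS and ES, 3.04 ± 1.48, missed the threshold (adjusted p = 0.141).

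Among 8 slow-fibre genes, Myh7 and Tnnc1 stood apart. Myh7, the slow and cardiac myosin heavy chain, was at 12.01 to 13.72 in all 6 ES tumors, ES 51 with 12.01 among them, and at 2.31 to 8.28 in CDS. It was lower in CDS than in ES by a log2 fold change of -8.74 ± 0.89 (limma adjusted p = 2.43e-06), and higher in ES than in eMC empty by 9.95 ± 0.44 (adjusted p = 4.18e-08), at least 56.7-fold. Tnnc1, the calcium-binding troponin subunit of slow and cardiac muscle, was at 10.62 to 12.92 in all 6 CDS tumors, and at 1.89 to 12.17 in ES. It was higher in CDS than in ES by 4.39 ± 1.45 (limma adjusted p = 0.0385) and than in eMC empty by 2.53 ± 0.64 (adjusted p = 0.00953). These were the only calls among the 8 in CDS against ES, 1 higher and 1 lower, with a list median of -1.01. Of all genes, 11.2% were called higher there and 9.58% lower. Against eMC empty 1 of the 8 rose in CDS and 1 in ES, where 14.6% and 30.1% of all genes rose. In eMC CIC-DUX4 against eMC empty 1 of the 8 rose, against 46.4% of all genes. It was Tnnt1, the slow troponin T, by 3.19 ± 0.93 (limma adjusted p = 0.0156). After quantile normalization 0 of the 8 rose and 4 fell, against 8.13% and 4.81% of all genes.

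The 10 tested genes of muscle energy metabolism moved in both directions. In ES against eMC empty 4 rose (Pgam2, Cox6a2, Eno3 and Pfkm) and 1 fell (Cox7a1), and in CDS 1 rose (Pfkm) and 2 fell (Cox7a1 and Cox8b). Of all genes, 30.1% rose and 10.9% fell in ES, and 14.6% and 5.81% in CDS. Pgam2, the muscle phosphoglycerate mutase, rose in ES by 5.95 ± 1.93 (limma adjusted p = 0.0224) and Cox6a2, a muscle subunit of cytochrome oxidase, by 5.29 ± 1.75 (adjusted p = 0.0242). After quantile normalization the calls of all 4 genes in ES were lost (limma adjusted p = 0.108 for Pgam2, 0.135 for Cox6a2, 0.301 for Eno3 and 0.257 for Pfkm), as was that of Cox8b in CDS (adjusted p = 0.081). Cox7a1, another muscle subunit of that enzyme, was at 12.31 to 12.90 in all 8 cultured samples and lower in the tumors: it fell by 6.22 in CDS (SE 1.15; limma adjusted p = 0.00101) and by 6.76 in ES (SE 1.75; adjusted p = 0.00714). In CDS against ES 0 of the 10 were called, against 20.8% of all genes. In eMC CIC-DUX4 against eMC empty 3 rose and 1 fell, where 46.4% and 4.62% of all genes did. After quantile normalization 0 rose and 2 fell, where 8.13% and 4.81% of all genes did.

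In the eMC empty arrays 2 to 5 of the 7 tested genes of embryonic muscle and 1 of the 6 myogenic genes (Myog) were above the dip. Of all probe sets, 11.1% to 27.0% were above it in these arrays. Actc1, the cardiac alpha-actin that is also made in embryonic muscle, was at 12.24 to 13.10 in the 8 cultured samples. It fell by 6.19 in CDS (SE 1.57; limma adjusted p = 0.01) and by 5.09 in ES (SE 1.78; adjusted p = 0.0316). Myog, the factor that starts the fusion of myoblasts, was at 10.39 to 11.51 in the cultured cells, and fell by 5.23 in CDS (SE 1.40; adjusted p from limma 0.0138) and by 4.60 in ES (SE 1.49; 0.0223). In both tumor types its highest values were in tumors of high muscle signal: 9.67 in CDS 4 and 9.69 in ES 46. Of all genes, 14.6% rose and 5.81% fell in CDS against eMC empty, and 30.1% and 10.9% in ES. Of the 7 embryonic genes 0 rose and 1 fell in CDS, and 0 rose and 2 fell in ES, Actc1 and the myoblast fusion gene Mymk, both against eMC empty. Mymk was dim in all ES and eMC empty arrays. In CDS against ES 1 of the 7 was called higher, again Mymk, against 11.2% of all genes. There 0 of the 6 myogenic genes were called, against 20.8% of all genes. With eMC empty as control, 0 of the 6 rose and 1 fell in CDS, and 1 rose and 1 fell in ES, beside the shares of all genes above. The one that rose was Myf6, the factor of mature fibres, by 4.81 ± 1.75 (limma adjusted p = 0.0375), at least 1.19-fold, with 1.58 in ES 51 and 10.87 in ES 48.

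In eMC CIC-DUX4 against eMC empty, 2 of the 7 embryonic genes rose and 1 fell (Myl4, a light chain of embryonic muscle) as deposited, and 0 rose and 4 fell after quantile normalization. Of all genes, 46.4% rose and 4.62% fell as deposited, and 8.13% and 4.81% after quantile normalization. Myh8, the perinatal myosin, had 3.17 ± 0.66 as deposited (limma adjusted p = 0.00277) and -0.65 after quantile normalization, and Chrna1, a subunit of the acetylcholine receptor, 2.65 and -0.98. Of the 6 myogenic genes 2 rose as deposited, Six4 and Myod1, beside 46.4% of all genes. Six4, a factor upstream of the myogenic genes, kept its call with 4.66 ± 0.35 (adjusted p = 9.06e-06) as deposited and 1.03 after quantile normalization (adjusted p = 0.001), and was the only one of the 6 called on the quantile scale.

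The likeness of each gene to Acta1 was measured as Pearson's r of the log2 signals over the 12 tumors, after each tumor type was centred on its mean. For the other 9 of the 10 genes r was 0.83 (Mb) to 0.93 (Tnnt3). Within the 6 CDS tumors it was 0.74 (Atp2a1) to 0.98 (Mb), and within the 6 ES tumors 0.77 (Mb) to 0.99 (Mylpf). The 10 genes outside the list with the highest r were Tnnc2 (0.93), Myh1 (0.91), Tcap (0.89), Pdlim3 (0.89), Myot (0.89), Csrp3 (0.89), Pgam2 (0.89), Tnnt1 (0.89), Cox6a2 (0.87) and Myh2 (0.87). Tnnc2 is the calcium-binding subunit of fast troponin, Tcap caps titin at the Z-disc, Myh2 is the type IIA myosin, and Pdlim3 and Csrp3 are LIM proteins of the Z-disc. Of the 50 genes with the highest r over all genes tested, 28 are among the 10 or in the muscle lists. The 28 include Acta1 itself, whose r is 1 by definition, and Tnnt2 of the heart list. The lists were chosen with earlier results of these data known, and this count was not tested. The points share their arrays, with the scale and RNA quality of each, and ES 51 and the 3 low CDS tumors set much of the range.

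Markers of other cells of the host or the culture were read in the same tumors. Cdh5, the cadherin of vessel walls, was at 11.61 to 12.66 in CDS, and its r to Acta1 was 0.29 over the 12 tumors, 0.01 within CDS and 0.36 within ES. For the other endothelial genes r over the 12 tumors was 0.39 (Tek), 0.20 (Pecam1), -0.07 (Cldn5), -0.15 (Emcn) and -0.16 (Kdr). Within CDS it was 0.46 (Tek), -0.43 (Pecam1), -0.30 (Cldn5), -0.57 (Emcn) and -0.53 (Kdr). Of the 6 endothelial genes, 4 to 6 were above the dip in the CDS tumors other than CDS 5, where only Cdh5 was. Of all probe sets, 11.7% (CDS 5) to 57.6% (CDS 2) were above the dip in CDS. Of 6 endothelial genes 5 rose in CDS and 5 in ES against eMC empty, with medians of 5.90 and 4.58. Of all genes, 14.6% rose in CDS and 30.1% in ES. Cdh5, Emcn and Pecam1 were called in both tumor types. The mean of the list was 6.70 to 9.89 in CDS and 4.54 to 8.47 in ES, and the summed linear signal 4444 to 8585 and 303.1 to 3973, against 29 to 47.08 in eMC empty, where 0 of the 6 were above the dip. Hba-a1, alpha-globin of red blood cells, was at 12.31 to 15.11 in all 12 tumors, at 3.96 to 4.50 in eMC empty and at 8.40 to 8.79 in eMC CIC-DUX4. In eMC CIC-DUX4 it was above the dip in every array with a dip. Its r to Acta1 was 0.31 over the 12 tumors, -0.02 within CDS and 0.64 within ES. Of the 2 red cell genes, 1 rose in each tumor type. The other, Alas2, was above the dip only in CDS 2 among the tumors, at 8.51. Its r to Acta1 was -0.16 over the 12 tumors, -0.47 within CDS and 0.52 within ES. The part of blood and vessels in the muscle signals was not tested.

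**Figure D5:**
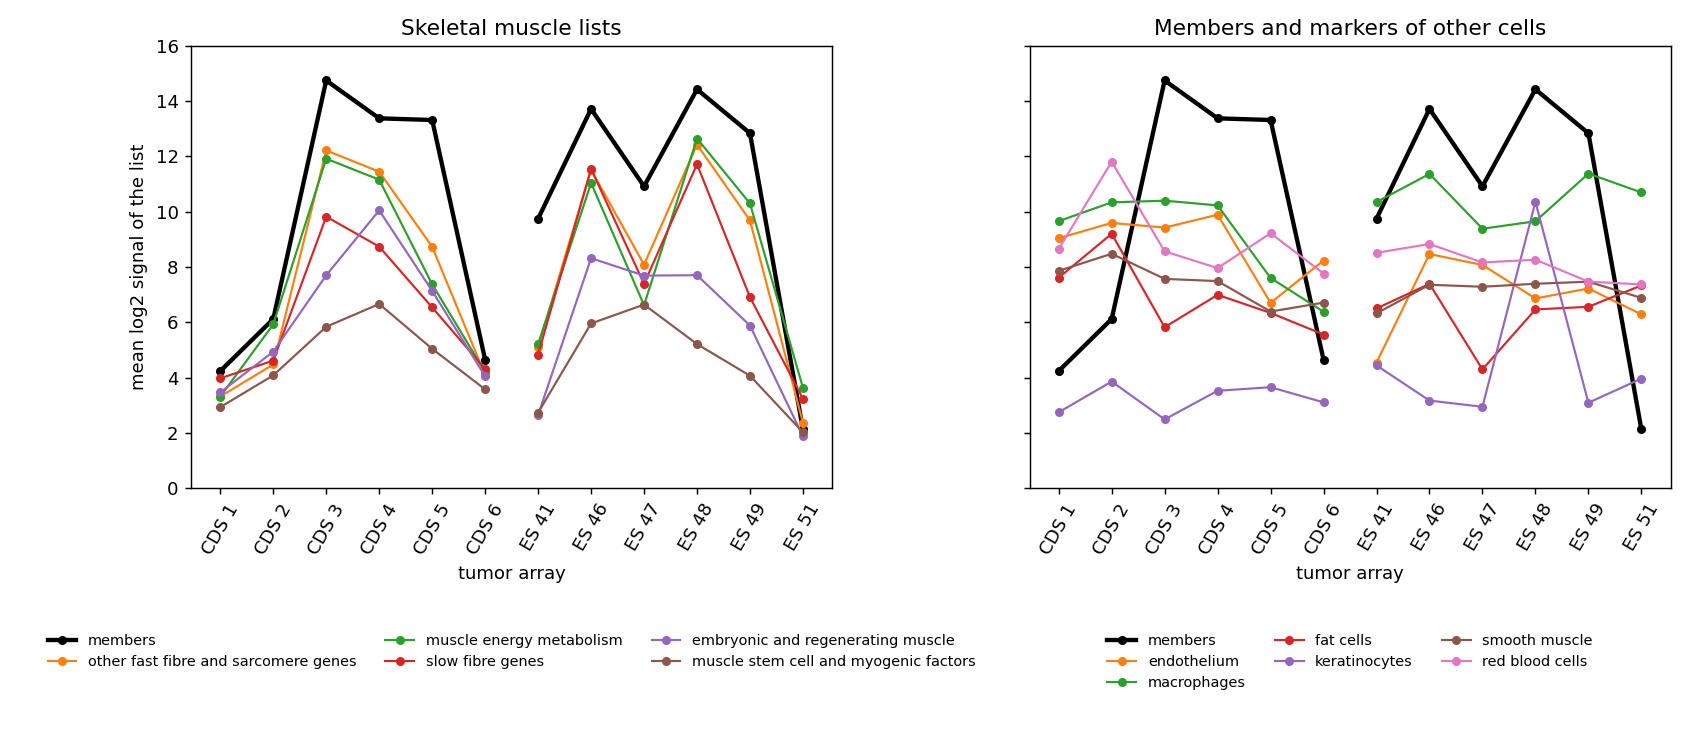
Mean log2 signal of each gene list (vertical axis) in the 12 tumors (horizontal axis), with the 10 skeletal muscle genes as the black line in both panels; the left panel shows other muscle lists and the right panel markers of other cells. The other fast-fibre, energy and slow-fibre lists have their highest CDS mean in CDS 3 and are at 3.63 or lower in ES 51, while endothelium and macrophage lists stay between 4.54 and 11.4.

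All 4 fat cell genes tested fell in CDS and in ES against eMC empty, with medians of -3.92 and -3.99. Of all genes, 5.81% fell in CDS and 10.9% in ES. One of the fat cell genes, Lep, the hormone leptin, was dim in all arrays of these groups, so its fall is between dim signals. Adipoq, the hormone adiponectin, had an r to Acta1 of -0.46, the lowest of the listed genes. The other fat cell genes had an r of -0.27 (Pparg), -0.08 (Fabp4) and 0.06 (Lep). Adipoq was at 12.75 in CDS 2 and 11.46 in ES 51, both low in muscle signal. It was also at 10.51 in CDS 4 and 10.97 in ES 46, both high in muscle signal. In CDS 6, low in muscle signal, it was at 4.35, and in ES 47 at 2.01. Of 5 macrophage genes 1 rose in CDS and 3 in ES, where 14.6% and 30.1% of all genes rose. Csf1r, the receptor for the macrophage growth factor, had an r of -0.06, and the other macrophage genes had an r of -0.17 (Cd68) to 0.18 (Lyz2). The mean of the 7 keratinocyte genes was highest in ES 48, at 10.36. Krt14, a keratin of basal skin cells, was at 11.05 there and at 1.68 to 1.99 in the other ES tumors. High Krt14 was not limited to ES 48: the cultured cells had 10.45 to 10.68 with CIC-DUX4 and 9.49 to 10.43 with the empty vector. The mean of the 7 genes in culture was 7.23 to 8.52 with CIC-DUX4 and 4.48 to 5.42 with the empty vector. ES 48 was also the highest ES tumor for all 10 muscle genes. Of the 7, 0 rose and 2 fell in CDS, and 1 rose and 1 fell in ES, against eMC empty. Their summed linear signal was 31.48 to 392 in CDS and 346.6 to 20110 in ES. The part of skin in the muscle signal of ES 48 was not tested.

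Of the 5 smooth muscle genes tested, 0 rose and 1 fell in each tumor type against eMC empty. Of all genes, 14.6% rose and 5.81% fell in CDS, and 30.1% and 10.9% in ES. Acta2, smooth muscle actin, was at 12.07 to 13.81 in all 12 tumors and at 14.99 to 15.85 in eMC empty, and fell by 2.33 in CDS (SE 0.27; limma adjusted p = 1.22e-05) and by 3.03 in ES (SE 0.20; adjusted p = 6.68e-07). Of the 2 heart genes 0 were called in either tumor type: Myl7, the atrial light chain, was at 1.93 to 3.39 in all 12 tumors, and Tnnt2, a cardiac troponin T also made in embryonic skeletal muscle, ran from 1.40 in ES 51 to 11.93 in CDS 5. Of the 2 nerve sheath genes, Sox10 was called lower in ES as deposited, although it was dim in all arrays of both groups, and Mbp was called in neither tumor type.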

How the data were processed

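Per the submitters' processing notes, the authors processed the arrays with MAS5 (version not given in the sources used here) and deposited log2 signals for 45141 probe sets on 20 arrays. Gene symbols came from the platform annotation, in which 28898 probe sets had 1 symbol, 551 several and 15588 none, and 104 controls were left out. Here the values were made linear again, and log2 was taken after adding 1.42, which is 0.25 times 5.69, the middle of the 20 array medians. The filter asked for signals over the array median on 4 or more of 20 arrays (26897 probe sets passed), and each of 12343 genes stood for its passing probe set of highest mean. Each comparison was fitted on its own groups by limma 3.58.1, using lmFit and a trended eBayes, under R 4.3.3 with the data.table package, version 1.17.8. Tests were two-sided with Benjamini-Hochberg adjustment over all genes, and a call needed an adjusted p under 0.05 with a change of 1 or more on the log2 scale. The dip is the lowest point of an array's signal density (bandwidth 0.35) between its 2 parts. "At least" folds compare the bright group's mean with a bound for the dim group, averaged over its arrays, each taken at its dip or, if higher, its signal; they hold for the deposited scale, and the log2 fold changes beside them rest on dim signals. Quantile normalization used all probe sets but the controls.

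The muscle genes and all lists were chosen with earlier results of these data known. Named were the 10 genes, up to 3 called genes of the highest absolute fold change in each list (those of highest mean with 0 called), and the 10 others most like Acta1, without predicted or clone-derived names. The labelled tumor types were taken as given. The number of arrays limits the precision. Same-numbered arrays of CDS and eMC empty, and of both cell groups, were checked for shared deviations: r was -0.19 to 0.49 for 3 pairs and -0.19 to 0.38 for 3 pairs, so the numbers were not taken as pairs. The steps were tested on simulated data. Alternatives changed the scaling, the offset, the filter, the threshold, the probe set summary and the spread model, fitted all groups together or with the replicate number as a block, and left out each array in turn, the 3 arrays of high median or, chosen after seeing the data, those without shared numbers.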

Additional observations from a re-analysis of the deposited data

Results flagged for a closer look

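In the ES group 6 of the 10 muscle genes had ES 51 far from the other 5 tumors by Dixon's criterion. Its log2 signals were 2.08 for Acta1 (next lowest tumor 13.34), 1.98 for Ckm (11.22), 2.47 for Mylpf (11.68), 1.66 for Myh4 (11.39), 1.57 for Tnnt3 (10.89) and 1.62 for Tnni2 (9.99). For the other 4 genes ES 51 was also the lowest, but the next lowest tumor, ES 41, was closer to it. In eMC CIC-DUX4, Myh4 was at 5.12 in replicate 6 against 1.35 in the next highest array; this array had the highest median signal, 7.03. Of 40 gene and group combinations 7 met the criterion, which chance meets in about 1 in 20, and the 6 of ES 51 come from the same sample.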

How the results depend on the processing

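In CDS against ES, 0 of the 10 genes were called under every setting run. The sign of 4 small differences changed there: Acta1 was -0.39 after quantile normalization, -0.61 with arrays shifted to the same median and -1.64 to 1.16 with single arrays left out. Mylpf, Des and Mb were 0.15, 0.10 and 0.42 without the arrays of high median, and -2.31 to 0.92, -1.56 to 0.73 and -1.86 to 0.42 with single arrays left out. In CDS against eMC empty the number called higher was 2 with an offset of 1, no filter, a filter of 10 arrays or all 4 groups in one fit (Ckm joined Myh4), and 0 with arrays shifted to the same median, eBayes without trend or an adjusted p under 0.01. It was 1 to 4 with single arrays left out. Acta1 was -0.36 with arrays shifted, and Acta1 and Mylpf were -0.32 to 1.10 and -2.07 to 0.20 with single arrays left out. In ES against eMC empty the number was 3 after quantile normalization and at an adjusted p under 0.01, and 5 to 9 with single arrays left out. Acta1 was 0.59 after quantile normalization, 0.25 with arrays shifted and -0.66 to 1.99 with single arrays left out, and Mylpf -1.39 to 1.14. In eMC CIC-DUX4 against eMC empty the numbers called higher and lower were 0 and 4 after quantile normalization, and 0 and 0 with arrays shifted or all 4 groups in one fit, which pools in the spread of the tumors. The number called higher was 3 with the mean of a gene's probe sets, an adjusted p under 0.01 or without the arrays of high median, and 3 to 7 with single arrays left out. After quantile normalization Ckm was -0.35, Des -0.0188, Myh4 -0.22, Tnnt3 -1.45, Tnni2 -1.75, Actn3 -0.79 and Mb -0.45. Myh4 was -1.21 with arrays shifted, -0.60 without the arrays of high median and -0.61 to 0.67 with single arrays left out.

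With the replicate number as a block, on the arrays with shared numbers, 8 of the 10 genes were called higher in CDS against eMC empty, against 1 on the same arrays without the block. Over all genes 1234 were called on these arrays without the block, and the share with the block is not given here. In the cultured cells 7 of the 10 genes were called higher and 2 lower, with and without the block. The numbers were not taken as pairs.

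Over all genes, CDS against ES gave 2564 calls, 4086 after quantile normalization and 1266 at an adjusted p under 0.01. CDS against eMC empty gave 2518, and 4539, 1305, 941 with arrays shifted, 1234 on the arrays with shared numbers and 1490 or 1586 without eMC empty 4 or 5. The cultured cells gave 6303, 1597 after quantile normalization and 0 with arrays shifted. With single arrays left out, CDS against ES gave 1818 to 2833 calls and CDS against eMC empty 1490 to 3327. In the same way ES against eMC empty gave 4111 to 5440 and the cultured cells 5286 to 6938. Except where given above, the cause of a change was not tested. Signals under the dip limit every value of the dim genes.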
